A study of Mus musculus with 24 samples.

Results

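The CC chemokines expressed by macrophages were described across genotype and LPS time in BMDMs, macrophages that were grown in culture from mouse bone marrow. The 10 genes were Ccl2, Ccl3, Ccl4, Ccl5, Ccl6, Ccl7, Ccl9, Ccl12, Ccl17 and Ccl22, each taken by its symbol from a table of 24273 genes, and all 10 passed the filter on low values. Ccl17 passed it only because of its libraries at 1 and 2 h of LPS. The study asked which genes FOS controls in macrophages that respond to lipopolysaccharide (LPS, the bacterial ligand of TLR4). Cells came from C57BL/6 mice of 2 labels, LysM-Cre (the controls) and FosKO, and were left untreated (0 h) or were given 100 ng/ml LPS for 0.5, 1 or 2 h. Each label at each time had 3 libraries, 24 in all. Both labels carried LysM-Cre, in which Cre is expressed from the lysozyme locus Lyz2 in myeloid cells, and the mice labelled FosKO were also Fos fl/fl. The series' design text gives the controls no floxed Fos allele, whereas the study's text makes them Fos fl/+, and which of the 2 applies could not be settled here. The age of the mice, and whether marrow from several mice was pooled, are not given in the sources used here. The study calls the libraries biological replicates, but the labels do not tie them to separate animals, so p-values measure only the spread between these libraries.

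CC chemokines are small secreted proteins that guide leukocytes along gradients through G protein-coupled receptors on the target cell. Macrophages that sense LPS through TLR4 release them to draw in other leukocytes. Ccl2, Ccl7 and Ccl12 act on CCR2 and recruit monocytes, Ccl3, Ccl4 and Ccl5 recruit monocytes, T cells and NK cells, Ccl6 and Ccl9 are rodent ligands of CCR1, and Ccl17 and Ccl22 act on CCR4 and attract T cells. FOS is a subunit of AP-1, a transcription factor that immediate early signalling brings on.

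All values are deposited log2 normalised values, so a difference of 1 is a doubling. A gene was called when limma with Benjamini-Hochberg adjustment over 13901 tested genes gave an adjusted p under 0.05. How many reads each library held is unknown here, so errors are those between libraries. Libraries of 1 group correlated across genes at r of 0.995 to 0.998, although genes are not independent replicates. The labels were checked first on Fos itself. Fos lay between 9.42 and 11.34 in LysM-Cre libraries at 0, 1 and 2 h and between 12.41 and 12.93 in libraries labelled FosKO at those times, so the targeted gene was higher, not lower, under the knockout label. At 0.5 h it was 13.43 to 13.57 in LysM-Cre and 12.64 to 12.81 in libraries labelled FosKO. From 0 to 0.5 h Fos rose by 2.41 in LysM-Cre, whereas its change in libraries labelled FosKO was 0.15 and was not called. A value for the whole gene does not separate the floxed part from the rest, so its level alone does not check the labels. The 0.5 h response of Fos did differ between the labels, by -2.26 (limma adjusted p 1.38e-09). Whether labels were exchanged was not tested, and the directions given here take the labels as they stand. Lyz2 also differed, at 10.87 to 11.57 in LysM-Cre libraries and 16.08 to 16.33 in libraries labelled FosKO. What the difference at the Cre locus adds to a genotype difference cannot be told apart from the label. The 18S ribosomal RNA Rn18s-rs5 was low (16.65 to 17) in 5 libraries at 0.5 and 1 h and high (18.57 to 19.39) in the other 19, and genotype differences within these sets are given beside the results at those times. With the 18S set as a term in the fit, no member gained or lost a call on an LPS change or a difference in response at 0.5 or 1 h. Of 7 macrophage markers (Adgre1, Csf1r, Cd68, Itgam, Mertk, Fcgr1 and Cd14) all 7 were expressed in every library, at 9.07 to 15.38. T or NK cell markers were at most 2.39 and B cell markers at most 1.74. Of 6 fibroblast markers 5 were in the table and 3 passed the filter (Col1a1, Col1a2 and Col3a1, none above 3.80), and their summed linear level before LPS was 25.5 to 32 in LysM-Cre and 17.5 to 24.2 in libraries labelled FosKO. Of 5 mast cell and basophil markers 2 were in the table, and only Kit passed the filter, at most 5.33. Cpa3 was at most -1.91, so the sum of this list is almost wholly Kit. It was 30.28 to 34.08 in LysM-Cre against 19.6 to 25.3 in libraries labelled FosKO at 0.5 h. The fibroblast sums of the labels were also apart at 1 h but overlapped at 0.5 and 2 h. The mast cell sums were likewise apart at 1 h but overlapped at 0 and 2 h. Their part in the results was not tested.

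On GRCm38 with GENCODE annotation, 8 of the 10 genes lay on chromosome 11 within 1629 kb and the other 2 on chromosome 8 within 66.4 kb, and no exon of any of them overlapped an exon of another gene. All 10 code for protein. The CCR2 ligands stood together, with Ccl2 (ENSMUSG00000035385) at chr11:82035571-82037453, Ccl7 (ENSMUSG00000035373) at chr11:82045712-82047525 and Ccl12 (ENSMUSG00000035352) at chr11:82101845-82103400, all on the plus strand. Ccl5 (ENSMUSG00000035042, chr11:83525778-83530518), Ccl9 (ENSMUSG00000019122, chr11:83572919-83578636), Ccl6 (ENSMUSG00000018927, chr11:83587882-83593087) and Ccl3 (ENSMUSG00000000982, chr11:83647844-83649355) followed on the minus strand, and Ccl4 (ENSMUSG00000018930, chr11:83662584-83664683) on the plus strand. Ccl22 (ENSMUSG00000031779) lay at chr8:94745590-94751699 and Ccl17 (ENSMUSG00000031780) at chr8:94810453-94812036, both on the plus strand.

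Promoter sequences were taken from RefSeq (GRCm38.p6), which matched 6 of the 10 genes (Ccl3, Ccl6, Ccl9, Ccl12, Ccl17 and Ccl22). No window was matched to Ccl2, Ccl4, Ccl5 and Ccl7 in the sequences used here, which does not mean that RefSeq lacks these genes. Ccl12 was the CCR2 ligand with the widest gap between the labels, and Ccl9 the abundant gene that was lower in libraries labelled FosKO. Ccl17 and Ccl22 are the members on chromosome 8, which moved together at 2 h. The sequences of these 4 genes are shown. Each runs 5′ to 3′ on the gene's own strand and ends at the base before the annotated start, and capitals mark motif letters. They lie at chr11:82101595-82101844 (plus), chr11:83578637-83578886 (minus), chr8:94810203-94810452 (plus) and chr8:94745434-94745589 (plus, 156 bases, since GENCODE starts Ccl22 earlier than RefSeq does).
Ccl12: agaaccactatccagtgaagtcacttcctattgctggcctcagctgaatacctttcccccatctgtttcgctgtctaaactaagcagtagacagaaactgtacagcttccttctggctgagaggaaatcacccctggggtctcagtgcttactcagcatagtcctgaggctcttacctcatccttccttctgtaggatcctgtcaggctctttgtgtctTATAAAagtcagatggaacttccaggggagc
Ccl9: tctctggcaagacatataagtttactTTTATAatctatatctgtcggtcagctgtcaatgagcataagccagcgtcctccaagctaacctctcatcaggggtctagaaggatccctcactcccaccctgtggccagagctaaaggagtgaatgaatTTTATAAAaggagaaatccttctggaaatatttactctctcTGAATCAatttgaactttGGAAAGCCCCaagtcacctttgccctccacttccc
Ccl17: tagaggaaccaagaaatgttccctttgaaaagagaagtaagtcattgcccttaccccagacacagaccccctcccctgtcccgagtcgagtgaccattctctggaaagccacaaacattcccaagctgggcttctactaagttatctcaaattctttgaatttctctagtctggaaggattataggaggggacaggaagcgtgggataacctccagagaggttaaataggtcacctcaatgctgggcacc
Ccl22: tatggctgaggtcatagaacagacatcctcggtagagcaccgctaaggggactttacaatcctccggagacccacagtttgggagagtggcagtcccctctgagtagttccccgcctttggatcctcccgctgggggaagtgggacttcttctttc
The 250 bases before the RefSeq start of each of the 6 genes were searched on both strands for AP-1 (TGANTCA), CRE (TGACGTCA), the NF-kB consensus, the interferon-stimulated response element core (GAAA, 2 bases of any kind, GAAA) and the TATA box (TATAAA). Of 32851 RefSeq windows of that length, 6.75% held the AP-1 letters, 1.55% the CRE, 3.9% the NF-kB consensus, 2.98% the response element core and 12.4% the TATA box. The Ccl9 window held AP-1 letters from 53 to 47 bases before the start, the NF-kB consensus on the opposite strand from 35 to 26 bases before it, and TATA box letters from 92 to 87 bases before it and, on the opposite strand, from 224 to 219 and, overlapping the first match, from 94 to 89. The Ccl12 window held a TATA box from 31 to 26 bases before the start. None of the 5 motifs was found in the windows of Ccl3, Ccl6, Ccl17 and Ccl22, which says only that these letters are not in these stretches. A match is a run of letters and not a measured binding site.

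Before LPS, 6 of the 10 chemokines were higher in libraries labelled FosKO, against 19.5% of all tested genes, and Ccl9 alone of the 10 was lower, against 15.9%. The 6 were the ligands of CCR2 (Ccl2, Ccl7, Ccl12) together with Ccl3, Ccl4 and Ccl5, and they stood 1.41-fold (Ccl3) to 3.89-fold (Ccl5) above LysM-Cre. At 0.5 h these 6 were again higher (21.2% of tested genes were), and limma called no member lower (19.7% of tested genes were), with 1 member, Ccl9, lower at an unadjusted p under 0.05. At 1 h the 6 were higher (18% of tested genes were) and Ccl9 and Ccl22 were lower (15.9%). At 2 h, 5 were higher (24.4%) and 3 were lower (20.3%), the latter being Ccl9, Ccl17 and Ccl22. The median difference of the 10 was 0.52, 0.50, 0.35 and 0.49 at 0, 0.5, 1 and 2 h, beside 0.00 for all tested genes at each time.

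**Figure D1:**
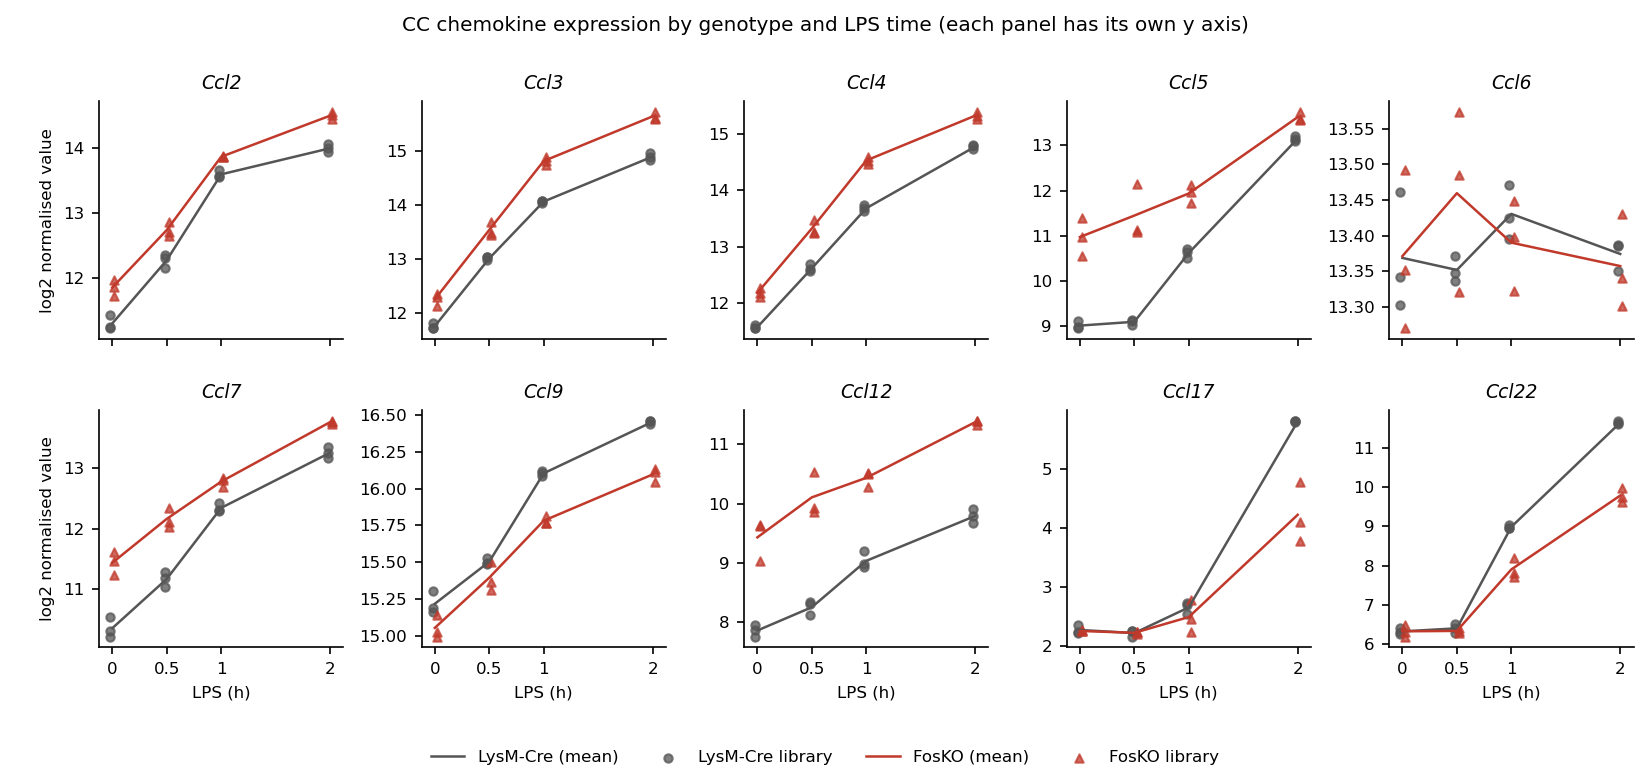
Deposited log2 normalised value (y axis, a separate scale in each panel) of each chemokine against hours of LPS (x axis), with 1 point per library and lines through the means of the 3 libraries, grey for LysM-Cre and red for libraries labelled FosKO. Ccl12 sits higher in libraries labelled FosKO at every time, the gap of Ccl5 is narrowest at 2 h, Ccl22 is apart at 1 and 2 h, and Ccl17 is apart at 2 h.

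Among the CCR2 ligands, Ccl12 showed the widest gap. In untreated cells it was 7.96, 7.76 and 7.87 in LysM-Cre and 9.03, 9.62 and 9.65 in libraries labelled FosKO. After 0.5 h of LPS it was 8.34, 8.11 and 8.31 against 9.85, 9.93 and 10.54, and after 1 h 8.97, 8.94 and 9.19 against 10.28, 10.52 and 10.5. After 2 h it was 9.79, 9.67 and 9.91 against 11.39, 11.33 and 11.39. The labels did not overlap at any time, and the untreated libraries labelled FosKO already reached the range of LysM-Cre libraries after 1 h of LPS. The genotype difference was 1.57, 1.85, 1.40 and 1.58 at 0, 0.5, 1 and 2 h (SE 0.15, n = 3 against 3, limma adjusted p at most 4.76e-07), or 2.64-fold to 3.61-fold. Within the high and low 18S sets, in that order here and below, Ccl12 differed by 2.00 and 1.55 after 0.5 h of LPS, then by 1.53 and 1.22 after 1 h.

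Ccl7, a second ligand of CCR2, was 10.55, 10.22 and 10.32 in untreated LysM-Cre libraries and 11.24, 11.61 and 11.46 in untreated libraries labelled FosKO. At 0.5 h the values were 11.29, 11.03 and 11.19 against 12.03, 12.11 and 12.33, while 1 h gave 12.42, 12.29 and 12.31 against 12.80, 12.83 and 12.69. At 2 h they were 13.25, 13.16 and 13.34 against 13.76, 13.77 and 13.72. The libraries labelled FosKO were above every control at each time, but by less after 1 and 2 h than before. The difference was 1.08, 0.99, 0.43 and 0.50 in order of time (SE 0.09, limma adjusted p at most 0.00101). Within the 18S sets Ccl7 differed by 1.06 and 0.84 after 0.5 h of LPS, then by 0.34 and 0.50 after 1 h. The high set holds 2 libraries labelled FosKO and 1 LysM-Cre library at 1 h, and in a fit of the 19 high libraries, which assumes that the lone library varies like the other groups, the 0.34 was not called (adjusted p 0.109, and 0.000577 to 0.109 over the 10 alternative settings).

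Ccl2, the main monocyte attractant of this receptor, was 11.43, 11.23 and 11.24 in LysM-Cre and 11.72, 11.97 and 11.87 in libraries labelled FosKO at 0 h. At 0.5 h it was 12.35, 12.16 and 12.32 against 12.65, 12.71 and 12.86, while 1 h gave 13.66, 13.57 and 13.57 against 13.87, 13.88 and 13.86. At 2 h it was 14.00, 13.94 and 14.06 against 14.45, 14.51 and 14.56. The libraries labelled FosKO lay above all controls each time, with the narrowest gap at 1 h. The difference was 0.55, 0.47, 0.27 and 0.50 at 0, 0.5, 1 and 2 h (SE 0.07, limma adjusted p at most 0.00287). Quantile normalisation lowered the 2 h value to 0.24, still called. Ccl2 differed within the 18S sets by 0.53 and 0.34 after 0.5 h of LPS, then by 0.21 and 0.30 after 1 h. In the fit of the high set, with its 1 LysM-Cre library at 1 h, the 0.21 was not called (adjusted p 0.169, and 0.00088 to 0.169 over the 10 alternative settings).

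Among Ccl3, Ccl4 and Ccl5, it was Ccl5 that differed most at 0, 0.5 and 1 h, and its gap was narrowest at 2 h. It was 9.11, 8.97 and 8.96 in untreated LysM-Cre libraries and 10.56, 10.97 and 11.39 in untreated libraries labelled FosKO. At 0.5 h it was 9.11, 9.03 and 9.15 against 11.12, 11.08 and 12.14, while 1 h gave 10.64, 10.71 and 10.51 against 11.72, 11.97 and 12.12. At 2 h it was 13.10, 13.15 and 13.20 against 13.57, 13.57 and 13.73. No library labelled FosKO fell within the control range at any time, and replicate 3 was the highest of them at each of 0, 0.5, 1 and 2 h. The difference was 1.96 (3.89-fold), 2.35 (5.1-fold) and 1.32 (2.49-fold) at 0, 0.5 and 1 h (SE 0.20, limma adjusted p at most 3.26e-05). At 2 h it was 0.47 (95% confidence interval 0.05 to 0.90) and missed the threshold (adjusted p 0.0644), although a fit of the 2 h libraries alone called it (adjusted p 2.39e-05, and 2.39e-05 to 0.206 over the 10 alternative settings). Quantile normalisation lowered the 2 h value to 0.31. Without FosKO replicate 3 at every time the 2 h difference was 0.42 (limma adjusted p 0.00146). That replicate was left out after its high Ccl5 had been seen, so this value adds no support for a 2 h difference. Within the 18S sets Ccl5 differed by 2.54 and 1.97 after 0.5 h of LPS, then by 1.41 and 1.11 after 1 h.

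Ccl3 and Ccl4, the macrophage inflammatory proteins, are neighbours on chromosome 11 and followed each other closely. Ccl3 was 11.82, 11.72 and 11.73 in LysM-Cre and 12.12, 12.29 and 12.35 in libraries labelled FosKO at 0 h, 13.03, 12.97 and 13.03 against 13.44, 13.48 and 13.69 at 0.5 h, 14.07, 14.07 and 14.04 against 14.73, 14.82 and 14.88 at 1 h, and 14.83, 14.89 and 14.96 against 15.62, 15.58 and 15.72 at 2 h. The difference was 0.50, 0.53, 0.75 and 0.74 in order of time (SE 0.06, limma adjusted p at most 2.31e-06), with no overlap at any time. Ccl4 was 11.60, 11.56 and 11.56 against 12.10, 12.26 and 12.17 at 0 h, 12.60, 12.57 and 12.69 against 13.23, 13.27 and 13.47 at 0.5 h, 13.68, 13.74 and 13.63 against 14.46, 14.53 and 14.60 at 1 h, and 14.74, 14.78 and 14.80 against 15.32, 15.26 and 15.39 at 2 h. The libraries labelled FosKO again lay above all controls, by 0.61, 0.71, 0.85 and 0.55 (SE 0.05, limma adjusted p at most 6.53e-08). Quantile normalisation lowered the 2 h value of Ccl4 to 0.32, still called. Within the 18S sets Ccl3 differed by 0.58 and 0.41 after 0.5 h of LPS, then by 0.78 and 0.68 after 1 h, and Ccl4 by 0.79 and 0.55, then 0.88 and 0.78.

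The CCR1 ligands Ccl6 and Ccl9 did not follow the others. Ccl9 was 15.30, 15.19 and 15.16 in LysM-Cre and 14.99, 15.03 and 15.14 in libraries labelled FosKO before LPS, and 15.49, 15.53 and 15.49 against 15.37, 15.31 and 15.50 at 0.5 h. At 1 h it was 16.08, 16.12 and 16.11 against 15.77, 15.77 and 15.81, while 2 h gave 16.44, 16.46 and 16.46 against 16.11, 16.05 and 16.13. The labels overlapped at 0.5 h and were apart at 0, 1 and 2 h, with the libraries labelled FosKO below. The difference was -0.16, -0.11, -0.32 and -0.36 at 0, 0.5, 1 and 2 h (SE 0.05, limma adjusted p 0.00854, 0.067, 1.4e-05 and 2.37e-06). Leaving out LysM-Cre replicate 1 removed the 0 h call (-0.12, adjusted p 0.0659), and leaving out FosKO replicate 3 added one at 0.5 h (-0.16, adjusted p 0.00727). Quantile normalisation gave -0.26 at 0 h, a called -0.28 at 0.5 h (limma adjusted p 0.000267) and -0.69 at 2 h. Within the 18S sets Ccl9 differed by -0.10 and -0.13 after 0.5 h of LPS, then by -0.29 and -0.35 after 1 h.

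Ccl6 stayed between 13.27 and 13.57 in all 24 libraries, and the labels overlapped at each time. Its genotype difference was 0.00 at 0 h (95% confidence interval -0.12 to 0.12), 0.11 at 0.5 h (-0.01 to 0.23), -0.04 at 1 h (-0.16 to 0.08) and -0.02 at 2 h (-0.14 to 0.10). None of them was called, but quantile normalisation of the libraries gave a called -0.15 at 2 h (limma adjusted p 0.0194), and leaving out FosKO replicate 2 gave a called 0.18 at 0.5 h (adjusted p 0.0174). Ccl6 differed within the 18S sets by 0.09 and 0.15 after 0.5 h of LPS, then by -0.01 and -0.05 after 1 h.

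The CCR4 ligands Ccl17 and Ccl22 were lower in libraries labelled FosKO only after LPS had raised them, Ccl22 at 1 and 2 h and Ccl17 at 2 h. Ccl22 was 6.31, 6.27 and 6.41 in LysM-Cre and 6.30, 6.19 and 6.49 in libraries labelled FosKO before LPS, and 6.42, 6.27 and 6.52 against 6.27, 6.40 and 6.34 at 0.5 h. At 1 h it was 8.96, 9.03 and 8.97 against 7.71, 7.80 and 8.19, while 2 h gave 11.60, 11.62 and 11.68 against 9.74, 9.62 and 9.98. The labels overlapped at 0 and 0.5 h and were apart at 1 and 2 h. Ccl22 differed by 0.00 at 0 h (95% confidence interval -0.22 to 0.22) and by -0.07 at 0.5 h (-0.29 to 0.15), then by -1.08 at 1 h and -1.85 at 2 h (SE 0.11, limma adjusted p 1.1e-07 and 3.42e-11). On the linear scale the libraries labelled FosKO held 0.472 and 0.277 of the control level at 1 and 2 h. Within the 18S sets Ccl22 differed by 0.02 and -0.24 after 0.5 h of LPS, then by -0.96 and -1.29 after 1 h.

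Ccl17 lay about the floor of the filter until 2 h, at 2.17 to 2.79 in all 18 libraries of the earlier times. At 2 h it was 5.81, 5.80 and 5.79 in LysM-Cre and 4.11, 3.78 and 4.79 in libraries labelled FosKO, so that the labels were apart and the controls were the tighter group. The difference at 2 h was -1.58 (SE 0.17, limma adjusted p 2.07e-07), a level of 0.335 of the controls. At 1 h the labels overlapped and the difference was -0.16 (95% confidence interval -0.51 to 0.19), and it came to 0.08 among high 18S libraries and -0.48 among low ones. Without FosKO replicate 3 at every time, it was -0.31 and was called (limma adjusted p 0.042). Before LPS and after 0.5 h the difference was -0.02 and 0.00, and at 0.5 h it was -0.02 among high 18S libraries and 0.04 among low ones. The deposited values look like a regularised log, which pulls low genes towards their mean, so these differences may be understated. Of 6 dendritic cell markers, 3 (Zbtb46, Xcr1 and Clec9a) passed the filter, none above 6.03, and Flt3, Cd209a and Siglech did not pass. Their summed linear level was 34.4 to 43.3 in all libraries at 0 h. At 2 h it was lower in libraries labelled FosKO (89.8 to 92.8) than in LysM-Cre (115 to 127), as Ccl17 and Ccl22 were. At 1 h, when Ccl22 was already lower in libraries labelled FosKO, it was 50.9 to 58.4 in them and 43.0 to 55.1 in LysM-Cre, with overlap. The part of these markers in the 2 h result was not tested, and in bulk RNA fewer cells of a type and less RNA per cell cannot be told apart. Of 8 neutrophil markers, 7 were in the table and 3 passed the filter (S100a8, S100a9 and Ltf, none above 5.82), while Ly6g and Elane were near the lowest values of the table. Their summed level was 44.5 to 53.0 in untreated libraries labelled FosKO and 61.6 to 81.7 in untreated LysM-Cre, against 59.5 to 68.7 and 97.1 to 128 after 2 h of LPS, and its part was not tested.

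**Figure D2:**
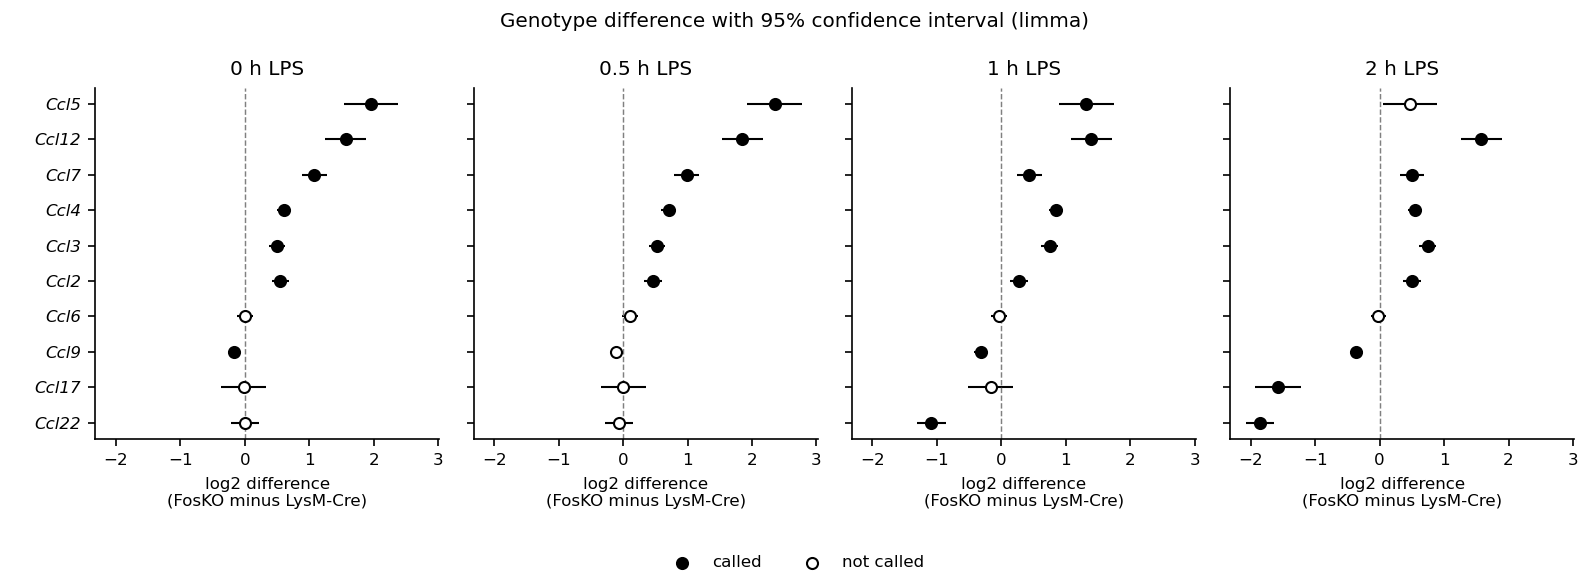
Genotype difference (x axis, libraries labelled FosKO minus LysM-Cre, log2) of each chemokine (y axis) in 4 panels by LPS time, with limma 95% confidence intervals and filled points for called differences. Ccl5 and Ccl12 stand farthest to the right at 0 and 0.5 h, and Ccl22 and Ccl17 farthest to the left at 2 h.

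LPS raised most of these genes in both labels. In LysM-Cre libraries 5, 8 and 9 of the 10 were called higher at 0.5, 1 and 2 h, against 5.09%, 19.2% and 30.6% of tested genes. In libraries labelled FosKO the counts were 6, 8 and 9, against 4.45%, 17.6% and 32.6%. The median change of the 10 was 0.34, 1.79 and 3.01 in LysM-Cre and 0.57, 1.17 and 2.48 in libraries labelled FosKO, beside -0.02 to 0.00 for all tested genes. The 9 that rose by 2 h were all but Ccl6, and in the deposited values each of them rose at least 2-fold in both labels. Ccl17 is among them, and its part in the 2 h counts is to be read as a description. It passed the filter only through libraries at 1 and 2 h. Quantile normalisation lowered the 2 h rise of Ccl9 in libraries labelled FosKO from 1.04 to 0.40. In LysM-Cre it gave Ccl9 means of 15.43 at 0 h and 16.27 at 2 h, a rise that was also under 2-fold.

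The genes rose at different times. Ccl2, Ccl3, Ccl4, Ccl7 and Ccl9 had risen by 0.5 h in both labels, with the steepest early rise in Ccl3 (1.25 in LysM-Cre and 1.28 in libraries labelled FosKO, SE 0.06). The early rise of Ccl9 in libraries labelled FosKO (0.34) was not called in a fit of only the groups compared (limma adjusted p 0.0715, and 3.85e-06 to 0.0715 over the 11 alternative settings). By 2 h Ccl3 had risen by 3.14 and 3.38, Ccl4 by 3.20 and 3.14, Ccl2 by 2.70 and 2.65, Ccl7 by 2.89 and 2.31, and Ccl9 by 1.24 and 1.04, LysM-Cre first. Ccl12 rose by 1.93 and 1.94, and its change at 0.5 h was called in libraries labelled FosKO (0.67, limma adjusted p 0.008) but not in LysM-Cre (0.39, adjusted p 0.155), where a fit of only the groups compared did call it (0.0194, and 0.0194 to 0.306 over the 11 alternative settings). The same kind of fit did not call it in libraries labelled FosKO (0.286, and 0.000852 to 0.286). Leaving out the untreated FosKO replicate 1 (0.47, limma adjusted p 0.0606) or FosKO replicate 3 at 0.5 h (0.46, adjusted p 0.0652) also removed the call in libraries labelled FosKO.

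Ccl5, Ccl17 and Ccl22 were late. In LysM-Cre Ccl5 had changed by 0.08 at 0.5 h (95% confidence interval -0.34 to 0.51, not called), 1.61 at 1 h and 4.14 at 2 h, a 17.6-fold rise. In libraries labelled FosKO it had changed by 0.48 (not called, limma adjusted p 0.197), 0.96 and 2.65. With the replicate number as a block within each label, the 0.5 h change in libraries labelled FosKO was called (adjusted p 0.0347, and 0.0347 to 0.6 over the 11 alternative settings), but without FosKO replicate 3 at 0.5 h it was 0.13 (adjusted p 0.778). Ccl22 rose by 2.66 and 5.31 at 1 and 2 h in LysM-Cre, a 39.6-fold rise by 2 h, and by 1.57 and 3.45 in libraries labelled FosKO, a 10.9-fold rise (SE 0.11, limma adjusted p at most 1.33e-10). Ccl17 was 3.52 and 1.96 higher at 2 h than before LPS (SE 0.17, limma adjusted p at most 1.98e-09), a difference to be read as a description, since Ccl17 passed the filter only through libraries at 1 and 2 h. Its change at 1 h, 0.38 and 0.23, was not called in either label, although 2 of the alternative settings called that in LysM-Cre (limma adjusted p 0.0263 to 0.52 over the 11).

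Ccl6 did not pass the test at any LPS time in either label, with changes of -0.02, 0.06 and 0.01 in LysM-Cre and 0.09, 0.02 and -0.01 in libraries labelled FosKO (SE 0.06), but quantile normalisation of the libraries gave called changes of -0.15 and -0.33 at 1 and 2 h in LysM-Cre and of -0.20 and -0.41 in libraries labelled FosKO.

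Successive times were also compared. From 0.5 to 1 h 8 members rose in LysM-Cre and 6 in libraries labelled FosKO, against 14% and 14.5% of tested genes, and from 1 to 2 h 9 rose in each label, against 27.5% and 27.2%. The 9 include Ccl17, whose step is to be read as a description because of how it passed the filter. Ccl2 rose by 1.33 from 0.5 to 1 h in LysM-Cre but by 0.40 from 1 to 2 h (SE 0.07), whereas Ccl22 rose by 2.58 and then 2.65 (SE 0.11) and Ccl5 by 1.52 and then 2.53 (SE 0.20). In libraries labelled FosKO Ccl5 changed by 0.49 from 0.5 to 1 h (limma adjusted p 0.082) and Ccl12 by 0.33 (adjusted p 0.122), neither called, then by 1.69 and 0.94 from 1 to 2 h. With the replicate block within each label both earlier steps were called (adjusted p 0.0095 and 0.0376, ranging over the 11 alternative settings from 0.0095 to 0.297 and from 0.0376 to 0.331). Both were also called without FosKO replicate 3 at 0.5 h (0.84 and 0.54, limma adjusted p 0.000241 and 0.00472). Ccl9 rose by 0.31 from 1 to 2 h in libraries labelled FosKO (limma adjusted p 7.29e-06), but under quantile normalisation the step was -0.08 and was not called.

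The difference between the labels in the response to LPS was tested directly as an interaction, the change from 0 h in libraries labelled FosKO minus that in LysM-Cre. At 0.5 h limma called none of the 10 and none was at an unadjusted p under 0.05, while 0.115% of tested genes were called. The interval of the 0.5 h difference was -0.15 to 0.21 for Ccl3, -0.28 to 0.11 for Ccl2 and -0.21 to 0.99 for Ccl5. At 1 h the responses of Ccl7 and Ccl22 were smaller in libraries labelled FosKO (0.727% of tested genes were called lower). The difference was -0.64 for Ccl7 (SE 0.13, limma adjusted p 0.0115) and -1.09 for Ccl22 (SE 0.15, adjusted p 0.000194). A further 5 members were at an unadjusted p under 0.05, namely Ccl3 (0.25) and Ccl4 (0.24) with a larger response in libraries labelled FosKO and Ccl2 (-0.28), Ccl5 (-0.64) and Ccl9 (-0.16) with a smaller one, and Ccl3 was called with the replicate block within each label (limma adjusted p 0.0281, and 0.0281 to 0.545 over the 11 alternative settings). At 2 h those of Ccl5, Ccl7, Ccl17 and Ccl22 were smaller (7.7% were called lower), by differences of -1.49 (SE 0.29, limma adjusted p 0.00112), -0.57 (SE 0.13, adjusted p 0.00469), -1.56 (SE 0.24, adjusted p 0.000111) and -1.86 (SE 0.15, adjusted p 4.25e-08). The value of Ccl17 is to be read as a description, since its untreated libraries lie about the floor of the filter.

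These 4 genes came to a smaller response from different starting points. Ccl5 and Ccl7 began higher in libraries labelled FosKO and ended 0.47 and 0.50 above the controls at 2 h. Quantile normalisation lowered that of Ccl5 to 0.31. Ccl17 and Ccl22 instead began with ranges that overlapped the controls and ended 1.58 and 1.85 below them on the log2 scale. Ccl3 (0.25, limma adjusted p 0.0589) and Ccl9 (-0.19, adjusted p 0.0501) missed the threshold at 2 h. Over the 11 alternative settings the limma adjusted p ran from 0.00594 to 0.0932 for Ccl3 and from 0.000482 to 0.0998 for Ccl9. Ccl3 was called there without the untreated FosKO replicate 3 or LysM-Cre replicate 3 at 2 h (0.29 and 0.28), and Ccl9 without the untreated LysM-Cre replicate 1, the untreated FosKO replicate 1 or FosKO replicate 3 at 2 h (-0.24, -0.22 and -0.21). Quantile normalisation called Ccl9 (-0.43), Ccl2 (-0.27, limma adjusted p 0.0489) and Ccl4 (-0.23, adjusted p 0.0484) there as well. In the deposited values, for Ccl2, Ccl4, Ccl6 and Ccl12 the 2 h difference was between -0.06 and 0.01, with intervals of -0.25 to 0.14, -0.22 to 0.10, -0.19 to 0.15 and -0.44 to 0.46. The 1 h difference of Ccl7 was not called in a fit of only the 4 groups compared (-0.64, limma adjusted p 0.0501), without FosKO replicate 3 at every time (-0.59, adjusted p 0.0615) or in the high 18S libraries, with 1 LysM-Cre library at 1 h (-0.73, adjusted p 0.0835, and 0.00233 to 0.0835 over the 11 alternative settings).

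**Figure D3:**
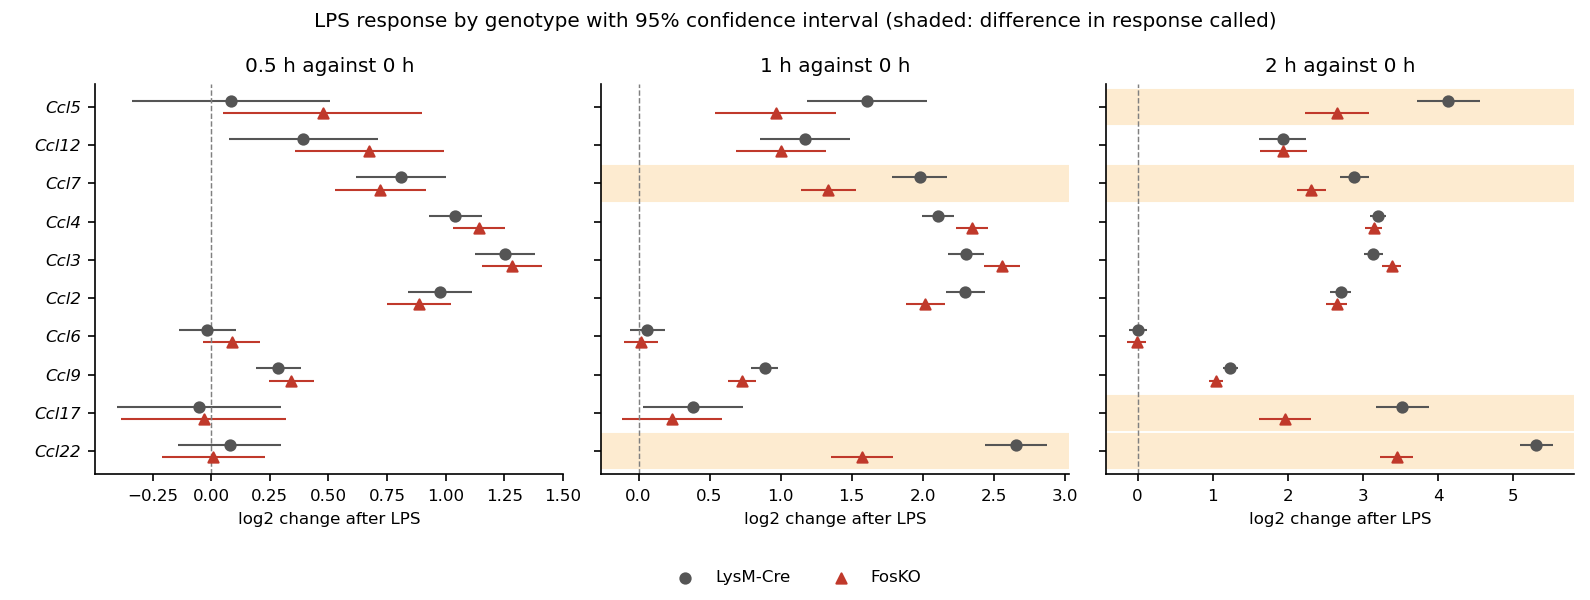
Change from 0 h (x axis, log2) of each chemokine (y axis) at 0.5, 1 and 2 h of LPS, as grey circles for LysM-Cre and red triangles for libraries labelled FosKO, with limma 95% confidence intervals, and shading where the difference in response was called. The shaded genes are Ccl7 and Ccl22 at 1 h and Ccl5, Ccl7, Ccl17 and Ccl22 at 2 h, and in each of them the red symbol lies to the left.

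The 8 group means of each gene were also put in order. For Ccl5 the order from the top was libraries labelled FosKO at 2 h (13.62), LysM-Cre at 2 h (13.15), libraries labelled FosKO at 1, 0.5 and 0 h (11.94, 11.45 and 10.97), then LysM-Cre at 1, 0.5 and 0 h (10.62, 9.10 and 9.01). Neighbours in that order overlapped in the middle, from 11.94 down to 10.62, and the 2 lowest overlapped as well. For Ccl12 the 3 LPS-treated groups labelled FosKO had means of 10.10 to 11.37, above LysM-Cre at 2 h (9.79), although the 0.5 h group, whose lowest library was 9.85, overlapped the LysM-Cre range of 9.67 to 9.91. For Ccl9 libraries labelled FosKO at 2 h (16.10) matched LysM-Cre at 1 h (16.10), with overlapping ranges. For Ccl22 libraries labelled FosKO at 2 h (9.78) lay between LysM-Cre at 1 h (8.99) and at 2 h (11.64), without overlap.

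To compare the levels of different chemokines, 2 was raised to each value and divided by the kilobases of exon of the gene. Ccl9 had the highest level per kb before LPS, at 12527 ± 661 (SD, n = 3) in LysM-Cre and 11183 ± 594 in libraries labelled FosKO. That was 38.6% and 27.5% of the sum of the 10. By 2 h Ccl3 and Ccl4 led in both labels, with 25.4% and 27.1% of the sum in LysM-Cre and 31.1% and 29.1% in libraries labelled FosKO, while Ccl9 held 18.8% and 10.8%. Ccl6 made up 18.2% of the sum in untreated LysM-Cre libraries and 3.77% at 2 h. Ccl22 reached 1369 ± 39.9 per kb in LysM-Cre at 2 h and Ccl17 109 ± 0.994, which with 381 ± 49.9 and 38.0 ± 14.1 in libraries labelled FosKO were the lowest of the 10. The summed level per kb was 32456 ± 1667 in untreated LysM-Cre and 40769 ± 2858 in untreated libraries labelled FosKO, and 156907 ± 4286 and 213871 ± 7966 at 2 h, with no overlap between labels at either time.

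**Figure D4:**
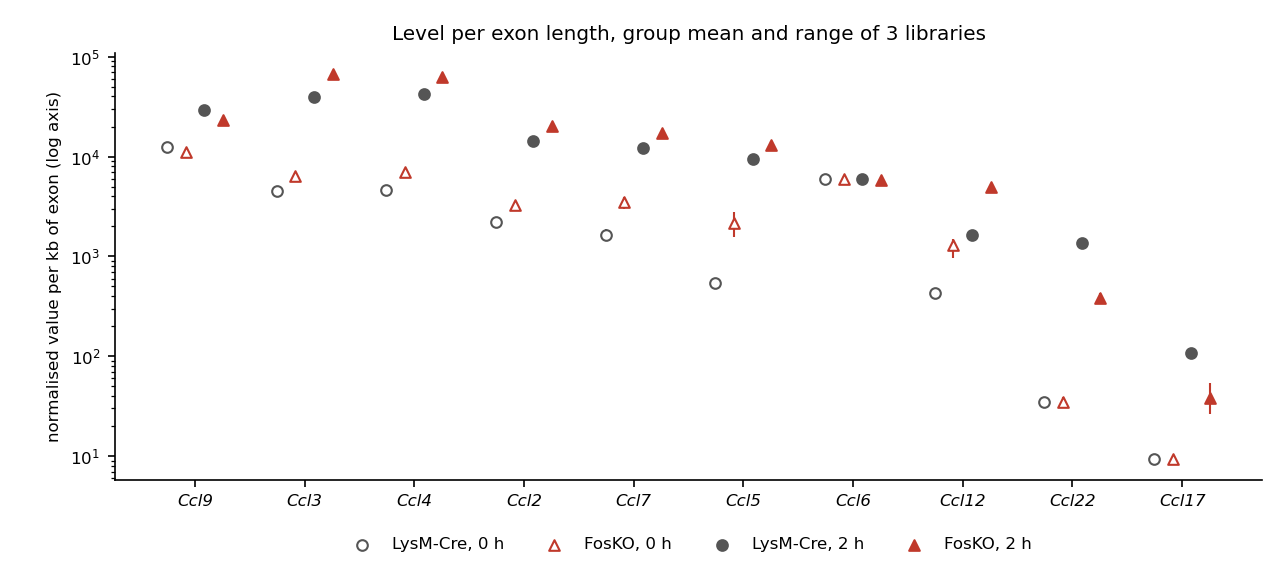
Normalised value per kb of exon (log y axis) of each chemokine (x axis) in LysM-Cre (grey circles) and libraries labelled FosKO (red triangles) at 0 h (open) and 2 h (filled), as the mean of 3 libraries with a line over their range. Ccl9 is highest at 0 h, Ccl3 and Ccl4 are highest at 2 h, and Ccl17 is lowest throughout.

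Neighbouring genes could differ in opposite directions. At 2 h Ccl9 was lower and Ccl6, next to it, was not called (but called lower under quantile normalisation), while Ccl3 and Ccl4 a short way along the same cluster were higher by 0.74 and 0.55. Within the CCR2 ligands Ccl12, 66.3 kb from Ccl2, differed by 1.58 against 0.50 for Ccl2 and for Ccl7.

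**Figure D5:**
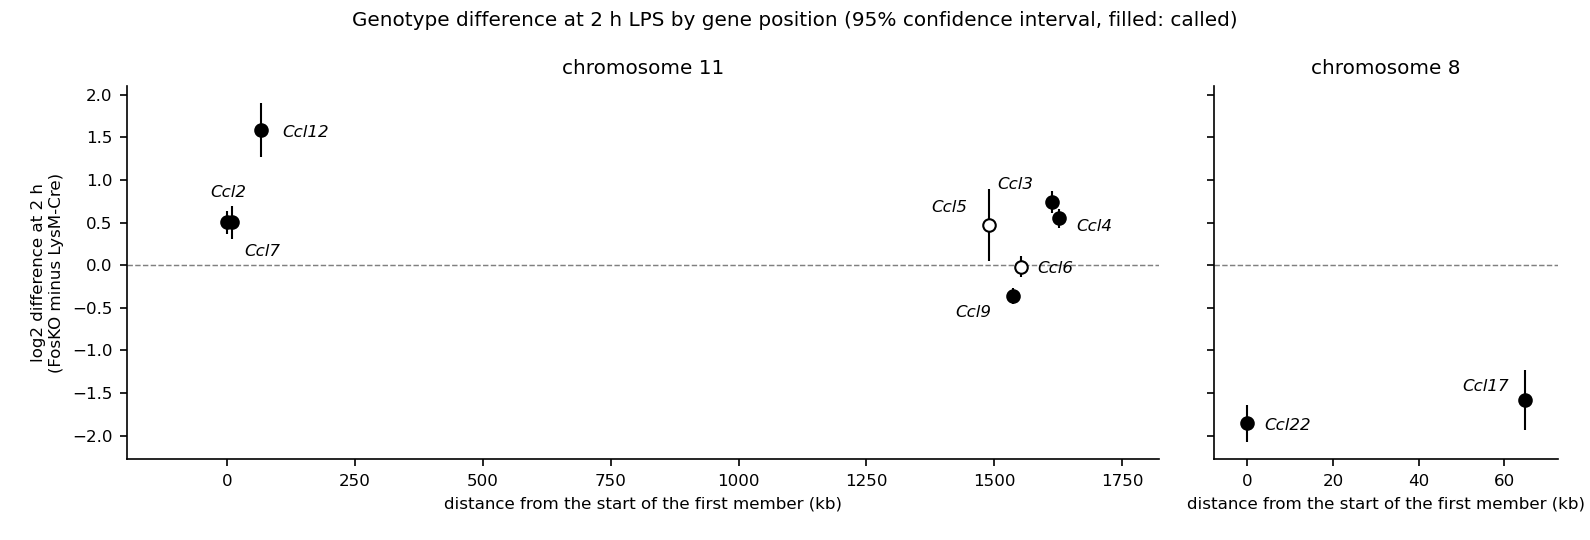
Genotype difference at 2 h (y axis, libraries labelled FosKO minus LysM-Cre, log2, with 95% confidence intervals) against distance in kb from the start of the first chemokine on chromosome 11 (left panel) and chromosome 8 (right panel), with filled points for called differences. Higher, lower and uncalled genes share the right end of the chromosome 11 cluster, and both chromosome 8 genes lie below 0.

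Other members of the pathway were taken from fixed lists. Of 11 further CC chemokines, 8 were in the table and 4 were tested (Ccl8, Ccl24, Ccl25 and Ccl27a). Ccl8, of the monocyte chemoattractant protein family, was higher in libraries labelled FosKO by 0.93, 1.21, 1.06 and 0.85 at 0, 0.5, 1 and 2 h (SE 0.20, limma adjusted p at most 0.0018). Ccl24, an eosinophil attractant, differed by -0.53 at 2 h (limma adjusted p 0.00136). Ccl27a differed by -0.50 at 0 h (limma adjusted p 0.00703), at low means of 2.96 in libraries labelled FosKO and 3.47 in LysM-Cre. Its other entries in the table did not pass the filter. The other differences of these 3 genes, and all of those of Ccl25, were not called.

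Of 14 CC chemokine receptors and decoys, 12 were in the table and 8 were tested. In libraries labelled FosKO 1, 1, 1 and 0 were higher at 0, 0.5, 1 and 2 h, and 3, 3, 3 and 1 were lower, beside 18% to 24.4% higher and 15.9% to 20.3% lower among all tested genes. Ccr2, the receptor of Ccl2, Ccl7 and Ccl12, was lower by differences of -0.65, -0.42, -0.62 and -0.43 (SE 0.12, limma adjusted p at most 0.0109), at each time opposite in sign to its ligands. Ccr1 differed by -0.18, -0.25 and -0.26 at 0, 0.5 and 1 h (SE 0.05) and Ccr3 by -0.41, -0.47 and -0.45 at those times (SE 0.13), each called. Ccr7, which guides cells to lymph nodes, was higher by 0.52 and 0.46 at 0.5 and 1 h, at low group means of 3.06 to 3.65, and Ccrl2, an atypical receptor, by 0.51 at 0 h. None of the differences of Ccr9, Ccr10 and Ccr1l1, the other receptors tested, was called. Against 0 h, LPS raised 1, 3 and 4 of the 8 receptors in LysM-Cre at 0.5, 1 and 2 h (5.09%, 19.2% and 30.6% of tested genes rose) and 1, 3 and 5 in libraries labelled FosKO (4.45%, 17.6% and 32.6%), and lowered 1 of them in each label, at 2 h (4200 of all 13901 tested genes fell then in LysM-Cre and 4106 in libraries labelled FosKO). Ccrl2 rose the most in LysM-Cre, by 2.08, 3.01 and 3.26. Of the 4 further chemokines, 0, 1 and 2 rose in each label, and 1 fell at 2 h, beside the same shares in each direction.

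For each chemokine, the protein-coding genes with the most similar profile were found by Pearson's r over the 24 libraries among 11901 candidates, as a description in which the libraries share labels and times. Ccl3 and Ccl4 were closest to each other (r 0.996), followed for both by Cdkn1a (0.992 for Ccl3 and 0.994 for Ccl4), which was also the closest to Ccl2 (0.992). Ccl7 was closest to Slfn2 (0.993) and Nupr1 (0.987), Ccl5 to Car13 (0.990) and Gbp5 (0.987), and Ccl12 to H2-K1 (0.992) and H2-M2 (0.989). Ccl22 was closest to Cxcl3 (0.991) and Syncrip (0.989), Ccl17 to Pxn (0.985) and Nsun2 (0.977), and Ccl9 to Hspa1b (0.980) and Gpr132 (0.978). Ccl6, whose values hardly moved, reached no more than 0.752 (Plbd1).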

How the data were processed

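RNA was extracted from the BMDM cultures, and per the study's methods strand-specific TruSeq libraries were sequenced from a single end. The authors mapped and counted reads with STAR 2.5.2a and RSEM 1.2.31 and used DESeq2, with build GRCm38, as the submitters' processing notes also list. The deposited table held log2 normalised values from -2.22 to 19.39. Its normalisation is not stated, and low genes look shrunken as in a regularised log. Whole reads could not be recovered, so the depth of each library is unknown here, although the study's methods give a typical yield.

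The values as deposited entered 1 limma fit (limma 3.58.1, R 4.3.3) of 8 group means over 24 libraries, with 16 residual degrees of freedom and variances moderated with a trend on the mean. Genes at or above 5 on the linear scale in at least 3 libraries were tested (13901 of 24273), and p-values were adjusted by Benjamini-Hochberg over all of them, for 17 comparisons. An exact permutation test of 3 against 3 libraries cannot go below 0.1, so none was used. The text names all 10 members, Fos, Lyz2 and Rn18s-rs5, cell type markers, tested genes of the 2 pathway lists and the 1 or 2 genes nearest to each member by r. The receptor list leaves out 1 receptor, which is not reported here. The members and lists were chosen with earlier results of these data known. The fit was tested on simulated data, the outcome of which is not given here, so no statement rests on it. Replicate numbers were taken to pair the libraries only where the deviations of every same-numbered pair correlated above 0.1. That held for libraries labelled FosKO between 0 and 0.5 h (lowest r 0.13) and between 0.5 and 1 h (lowest r 0.33). FosKO replicate 1 was the only low 18S library of its group at both 0.5 and 1 h. Pairing by number and a shared 18S set therefore cannot be told apart between those times. The alternatives were other scalings, filters, a pseudocount of 1, other libraries in the fit, replicate blocks, 18S sets and leaving out each library in turn.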

Additional observations from a re-analysis of the deposited data

Results flagged for a closer look

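The difference between the labels in the response to LPS passed the test of the difference itself in 6 cases (limma, Benjamini-Hochberg adjusted p under 0.05). At 1 h it was -0.64 for Ccl7 and -1.09 for Ccl22, while 0.727% of all tested genes were called lower. At 2 h it was -1.49 for Ccl5, -0.57 for Ccl7, -1.56 for Ccl17 and -1.86 for Ccl22, while 7.7% were called lower. The value of Ccl17 is to be read as a description, since Ccl17 passed the filter on low values only through libraries at 1 and 2 h. The 1 h call of Ccl7 was lost in a fit of only the groups compared and without FosKO replicate 3 at every time. Each value is the change from 0 h in the 3 libraries labelled FosKO minus that in the 3 LysM-Cre libraries, so all 6 responses were smaller under the FosKO label.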

How the results depend on the processing

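Of 170 results for single genes (10 genes in 17 comparisons), 140 kept their side of the threshold under the alternatives that applied (11 in all). They also kept it without each of the 24 libraries in turn. The called results among them kept their direction. Uncalled ones were not held to a direction, and the difference of Ccl17 at 0 h between the labels ran from -0.04 to 0.02 without 1 library. The number of genes called for the difference in response at 2 h went from 4 to 7 under quantile normalisation, and that at 1 h from 2 to 1 with only the groups compared, in the high 18S libraries alone and without FosKO replicate 3 at every time, the last chosen after seeing the data because that library was high for Ccl5. Under quantile normalisation the change of Ccl6 turned to -0.15 at 1 h and -0.33 at 2 h in LysM-Cre and to -0.20 at 1 h in libraries labelled FosKO, and the step of Ccl9 from 1 to 2 h in libraries labelled FosKO turned to -0.078. Called values of Ccl9 at 7 further comparisons, of Ccl2 at 2 and of Ccl4 at 1 moved by over 1.5 times under quantile normalisation. The cause was not tested. Shares of all tested genes are given here only for the main fit, so moves in counts are not read as particular to the members.

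With only the groups compared, which leaves the differences as they were and changes the variance estimate, Ccl9 lost its calls at 0 h between the labels (-0.16, adjusted p 0.0656) and at 0.5 h of LPS in libraries labelled FosKO (0.34, adjusted p 0.0715), and Ccl12 lost the latter as well (0.67, adjusted p 0.286). Leaving out 1 library moved the genes called between the labels to 6 to 7 at 0 h and 6 to 7 at 0.5 h, those called in libraries labelled FosKO to 5 to 6 at 0.5 h and 6 to 8 from 0.5 to 1 h, and the difference in response at 2 h to 4 to 5, and left the other counts as they were. Without FosKO replicate 3 at every time Ccl5 was called at 2 h (0.42, adjusted p 0.00146), and the differences of Ccl5 at 0, 0.5 and 1 h stayed called. For Ccl5 that choice rested on the values tested, so the 2 h call adds no support.

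Outside the 2 comparisons that met the rule for pairing, same-numbered libraries were not taken as paired. Of 36 such pairs checked, 7 correlated above 0.1 and 21 correlated best with their own number (r from -0.53 to 0.41). In LysM-Cre, same-numbered pairs between 0, 1 and 2 h all correlated best with their own number, though weakly (r 0.02 to 0.09). Those between the labels at 0.5 and 1 h did not. Whether same-numbered libraries shared a culture or an animal was not tested, so the check does not show that pairing was absent. The replicate block shared by all groups brought Ccl5 at 2 h between the labels past the threshold (0.47, adjusted p 0.0385), as well as the difference in response at 2 h of Ccl3 (0.25, adjusted p 0.0262) and Ccl9 (-0.19, adjusted p 0.0396). The depth of each library is unknown, so what depth limits could not be told.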
